A study of Rattus norvegicus with 20 samples.

Results

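Vegfa, Kdr, Flt1 and Nos3 encode a growth factor for blood vessels, its main receptors and the nitric oxide synthase of the vessel lining. Their RNA was followed in gastrocnemius, a calf muscle, and in abdominal white adipose tissue of the same rats. The members were taken by Ensembl identifier from the deposited table: Vegfa is ENSRNOG00000019598, Kdr ENSRNOG00000046829, Flt1 ENSRNOG00000000940 and Nos3 ENSRNOG00000009348. They are 4 of 32883 genes in the table, and 4 of 4 passed the filter on low counts, which left 13806 genes. The deposited table holds no gene names, so the pairing of these identifiers with names comes from the member list itself. The muscle and the adipose group comprised 10 libraries each, 1 per tissue from each of 10 rats of a Fischer 344 x Brown Norway cross. The rats were 8 months old when obtained from the colony, were kept for 2 weeks under a reversed light cycle and were killed under isoflurane. No treatment, transgene or allele is named in the labels, and the adipose depot is given as abdominal only. The design text gives 5 males and 5 females, whereas 20 of 20 sample labels say male, so the sexes were not compared. Libraries with the same number came from the same animal.

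Vegfa is the VEGF-A ligand, a secreted protein that parenchymal cells such as muscle fibres and fat cells release and that drives the growth and upkeep of capillaries. Kdr and Flt1 are receptor tyrosine kinases found mainly on endothelial cells. Kdr carries most of the growth signal, while Flt1 binds the ligand more tightly, signals weakly and is also made in a soluble form that holds ligand away from Kdr. Nos3, the endothelial nitric oxide synthase, is activated downstream of Kdr and makes the gas that widens vessels. A count per gene sums all isoforms, so soluble and membrane-bound Flt1, and the splice forms of Vegfa, were not distinguished.

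The DNA before the start sites is shown because the results contrast the ligand with the endothelial genes. Sequences are those of RefSeq on the assembly GRCr8, matched by symbol for 4 of 4 genes, and are not on the assembly of the deposited counts. Each is printed 5′ to 3′ on the strand of the gene, up to the first base of any annotated transcript of the gene. Capitals mark matches, on either strand, to GGAA (the core of ETS sites), GGGCGG (the GC box), TGACGTCA (the cyclic AMP response element) or TATAAA (the TATA box). The motif ACGTG (the core of hypoxia response elements) was also searched.

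Vegfa, chr9:22452604-22452853, plus strand: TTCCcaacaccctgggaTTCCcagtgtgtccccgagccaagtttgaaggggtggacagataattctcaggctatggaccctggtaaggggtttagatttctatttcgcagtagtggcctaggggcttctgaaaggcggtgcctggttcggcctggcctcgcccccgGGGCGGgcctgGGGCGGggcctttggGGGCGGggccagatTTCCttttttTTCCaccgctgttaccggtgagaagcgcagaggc
Kdr, chr14:32571813-32572030, plus strand: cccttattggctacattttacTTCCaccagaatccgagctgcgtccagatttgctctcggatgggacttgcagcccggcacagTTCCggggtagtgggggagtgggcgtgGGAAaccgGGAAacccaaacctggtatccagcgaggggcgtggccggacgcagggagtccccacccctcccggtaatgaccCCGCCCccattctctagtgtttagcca
Nos3, chr4:11706605-11706831, minus strand: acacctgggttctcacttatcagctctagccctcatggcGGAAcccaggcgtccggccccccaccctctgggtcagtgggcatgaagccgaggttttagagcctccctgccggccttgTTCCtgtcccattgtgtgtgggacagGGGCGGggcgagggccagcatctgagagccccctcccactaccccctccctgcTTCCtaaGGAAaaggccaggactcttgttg

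The window of Flt1 lies inside the span of a longer annotated transcript, so only its response element is shown, with 8 bases on each side.
Flt1, chromosome 12, plus strand: ggacccctTGACGTCActagaagg

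In the 250 bases before the listed start site, Vegfa held 3 GC boxes and 4 GGAA cores, Kdr 1 GC box and 4 cores, Nos3 1 GC box and 4 cores, and Flt1 3 GC boxes and 3 cores. Over 33469 RefSeq windows of the same length, 93.2% held a GGAA core and 30.5% a GC box. The Flt1 window alone of the 4 held TGACGTCA, found in 1.59% of windows, and TATAAA, found in 12.9%. ACGTG was found in none of the 4 windows and in 16.6% of all windows. This does not show that hypoxia cores are absent, since GCGTG was not counted and the printed Kdr sequence holds it. A second listed start of Vegfa held 2 GGAA cores and no other of the motifs searched. These matches describe letters only, and DNA farther upstream than 250 bases was not searched.

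Library depth was 8446753 to 20141854 counts for muscle and 11067755 to 25904309 counts for adipose tissue. Levels are given as CPM, the reads of a gene per 1e6 reads of the library, on 2 scales. The first divides by the library total times a trimmed-mean (TMM) factor, which was 0.559 to 0.747 in muscle and 1.21 to 1.98 in adipose tissue. The second divides by the library total alone. Going from TMM factors to library totals moved the log2 fold changes of all tested genes by -1.30 at the median, so each direction is given on both scales. Earlier results of these data, not recomputed here, set muscle library 2 apart from its tissue and put more muscle-restricted transcripts in adipose libraries 1, 3 and 5. Values without these libraries are given for some of the results. Genes that mark the tissues and other cell types could not be looked up without names, so the labelled tissues were not checked against markers, and marker levels were not set beside the results.

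With TMM factors the ligand and the endothelial genes differed between the tissues in opposite directions, whereas with library totals the endothelial genes were lower in muscle and Vegfa did not pass the test. On the TMM scale, Vegfa was 2.51-fold higher in muscle, while Kdr was 3.29-fold, Nos3 2.47-fold and Flt1 1.31-fold higher in adipose tissue. With edgeR's quasi-likelihood test and Benjamini-Hochberg adjustment over all tested genes, 4 of 4 members passed an adjusted p of 0.05. With library totals the 3 endothelial genes passed and Vegfa did not, where 86.4% of tested genes passed and 74.2% did so with the higher level in adipose tissue. The call is thus common here: with TMM factors 79.8% of all tested genes passed it, 37.6% with the higher level in muscle and 42.2% with the higher level in adipose tissue. In bulk tissue, fewer cells of a type and less RNA per cell cannot be told apart.

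The call for Vegfa depended on the scaling. Muscle libraries held 410 to 787 CPM with TMM factors, with a median of 540 CPM, while adipose libraries held 168 to 293 CPM, with a median of 213 CPM. Every muscle library lay above every adipose library, which was so for 21% of tested genes. The log2 fold change of muscle over adipose tissue was 1.33 (SE 0.15, edgeR adjusted p = 6.00e-08). By library totals the tissues overlapped: muscle libraries held 229 to 485 CPM with a median of 355 CPM, and adipose libraries 214 to 455 CPM with a median of 344 CPM. The log2 fold change was then 0.03 (SE 0.16, edgeR adjusted p = 0.854), and muscle was higher in 5 of 10 animals. As a share of all reads, Vegfa was therefore not found to differ between the tissues. Relative to the median gene it stood at 1.41 with TMM factors and at 1.43 with library totals on the log2 scale. On these scales 82.3% and 82.6% of tested genes had a lower fold change of muscle over adipose tissue than Vegfa.

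**Figure D1:**
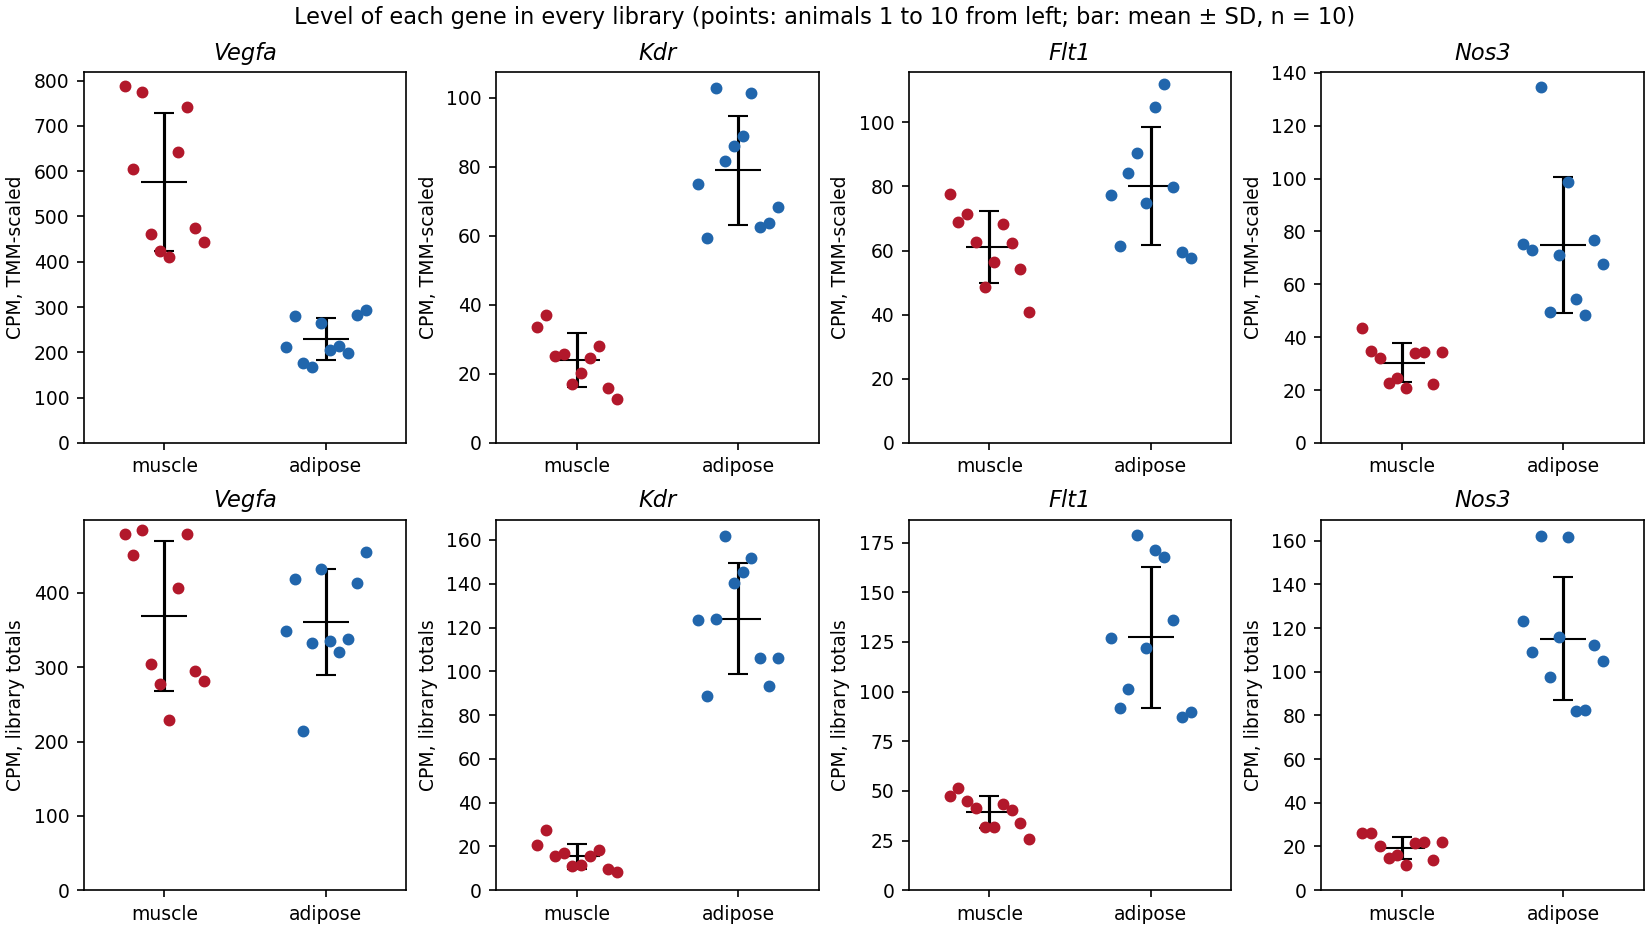
CPM of the 4 genes (columns) in every library, with TMM factors in the upper row and library totals in the lower row; points are animals and bars are the mean ± SD (n = 10). Vegfa separates the tissues in the upper row but not in the lower, Kdr and Nos3 separate them in both, and Flt1 in the lower row.

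Kdr showed the largest tissue difference of the 3 endothelial genes. Muscle libraries held 12.8 to 36.9 CPM with TMM factors, with a median of 24.8 CPM, while adipose libraries held 59.3 to 103 CPM, with a median of 78.4 CPM. The highest muscle library was number 2 and the lowest number 10, and no muscle library reached the adipose range. A full separation with the higher level in adipose tissue was found for 24.5% of tested genes. The log2 fold change of muscle over adipose tissue was -1.72 (SE 0.17, edgeR adjusted p = 5.09e-09). Without adipose libraries 1, 3 and 5 it was -1.59 (SE 0.19, edgeR adjusted p = 2.10e-07), and without muscle library 2 it was -1.79 (SE 0.17, edgeR adjusted p = 2.02e-09). With library totals it was -3.0 (SE 0.20, edgeR adjusted p = 2.59e-12), again without overlap, as for 50.3% of tested genes with the higher level in adipose tissue on that scale. The depth behind the lowest muscle value in reads was 131 counts, in muscle library 7.

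Nos3 followed the direction of Kdr at a smaller size. Muscle libraries held 20.8 to 43.3 CPM with TMM factors, with a median of 32.9 CPM, while adipose libraries held 48.5 to 135 CPM, with a median of 72.1 CPM. Adipose library 3 was the highest of its tissue, followed by library 6 at 98.9 CPM. The tissues did not overlap, as for 24.5% of tested genes with the higher level in adipose tissue. The log2 fold change of muscle over adipose tissue was -1.31 (SE 0.18, edgeR adjusted p = 6.51e-07), and -2.57 (SE 0.17, edgeR adjusted p = 2.64e-12) with library totals. Without adipose libraries 1, 3 and 5 it was -1.09 (SE 0.17, edgeR adjusted p = 1.01e-05).

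Flt1 differed least. Muscle libraries held 40.7 to 77.7 CPM with TMM factors, with a median of 62.5 CPM, while adipose libraries held 57.7 to 112 CPM, with a median of 78.7 CPM. The ranges overlapped: 4 of 10 muscle libraries lay below all adipose libraries, and adipose tissue was higher in 8 of 10 animals. The log2 fold change of muscle over adipose tissue was -0.39 (SE 0.13, edgeR adjusted p = 0.0106). The value was -0.35 without adipose libraries 1, 3 and 5 (SE 0.16, edgeR adjusted p = 0.0492), just inside the threshold. With library totals the tissues separated fully, as for 50.3% of tested genes with the higher level in adipose tissue. Muscle libraries then held 25.9 to 51.4 CPM and adipose libraries 87.2 to 179 CPM. The log2 fold change was then -1.70 (SE 0.16, edgeR adjusted p = 1.17e-09). Relative to the median gene Flt1 stood at -0.31 under either scaling, where 42.4% of tested genes had a lower fold change of muscle over adipose tissue, against 21.6% for Kdr and 26.6% for Nos3 (TMM factors). The position of Flt1 depended on the genes that entered the median: it was 0.07 with no filter on low counts and -0.11 with DESeq2. Its start-site window was the one that held TGACGTCA and TATAAA, and a link of these motifs with the levels was not tested.

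**Figure D2:**
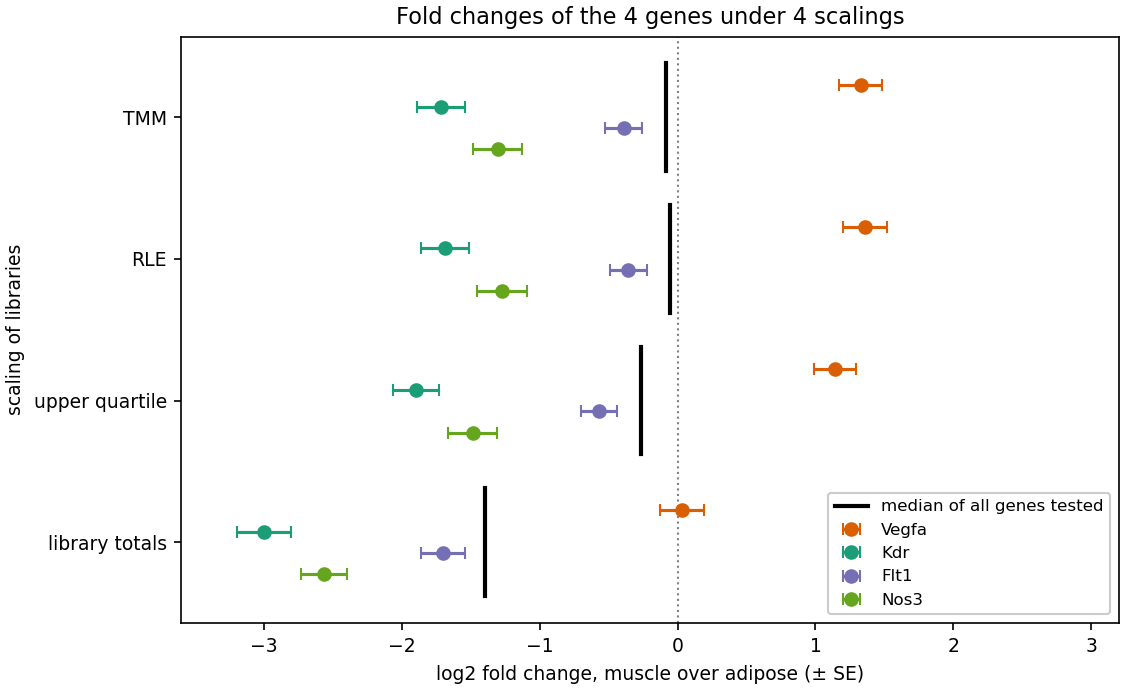
Log2 fold change of muscle over adipose tissue (x axis, ± SE) for the 4 genes under 4 scalings of the libraries (rows); the black bar is the median of all tested genes. The 4 genes keep their order and nearly keep their distance from the black bar, while Vegfa goes from 1.33 with TMM factors to 0.03 with library totals.

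The ratio of the reads of 2 genes within 1 library does not depend on the scaling, and gene length cancels when the ratio is compared between tissues. It therefore contrasts the ligand with the endothelial genes directly. The values of a ratio are not relative abundances of the transcripts, since they are not corrected for gene length. The 6 ratios were each tested two-sided by an exact permutation test that flips the signs of the 10 animals' differences. Its smallest possible p is 0.00195, and p-values were adjusted over the 6 ratios (Benjamini-Hochberg). How many other pairs of genes have ratios that separate the tissues was not computed. With TMM factors, 21% of single genes separated fully with the higher level in muscle and 24.5% with the higher level in adipose tissue. A separated ratio is therefore not shown to be particular to these genes.

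For each read of Kdr, a muscle library held 16.4 to 34.5 reads of Vegfa, with a median of 25.6, and an adipose library 1.72 to 4.72, with a median of 2.95. The ratio was 8.35-fold higher in muscle, a log2 difference of 3.06 (SD 0.60, n = 10 animals, exact permutation p = 0.00195, adjusted p = 0.00293). The tissues did not overlap, and muscle was higher in 10 of 10 animals.

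For each read of Nos3, muscle libraries held 12.9 to 24.2 reads of Vegfa, with a median of 19.3, and adipose libraries 1.32 to 4.34, with a median of 3.70. The log2 difference was 2.58 (SD 0.71, n = 10 animals), or 5.98-fold. The lowest adipose ratio was that of library 3, which held the highest Nos3 level of its tissue. For each read of Flt1, muscle libraries held 7.25 to 11.9 reads of Vegfa, with a median of 9.09, and adipose libraries 1.86 to 5.08, with a median of 2.62. The log2 difference was 1.69 (SD 0.58, n = 10 animals), or 3.22-fold. Both ratios were higher in muscle in 10 of 10 animals without overlap (exact permutation p = 0.00195 and adjusted p = 0.00293 for each).

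**Figure D3:**
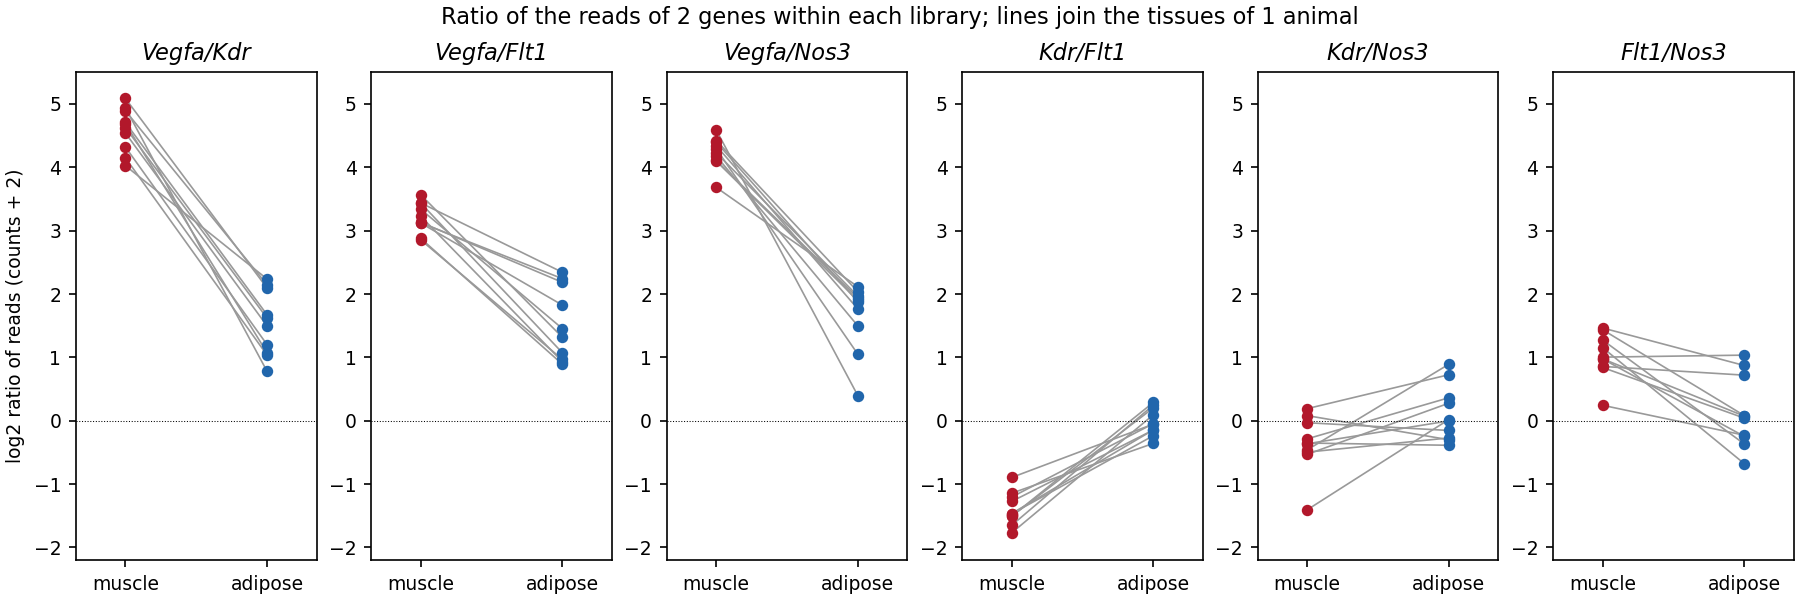
Log2 ratio of the reads of 2 genes (y axis, 2 added to each count) in muscle and adipose libraries, 1 panel per pair of genes; each line joins the 2 tissues of 1 animal. The 3 ratios of Vegfa to an endothelial gene fall from muscle to adipose tissue in every animal, and Kdr/Flt1 rises in every animal.

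The endothelial genes also differed in proportion among themselves. Adipose libraries held 0.780 to 1.22 reads of Kdr for each read of Flt1, with a median of 0.966, and muscle libraries 0.291 to 0.537, with a median of 0.359. The log2 difference of muscle minus adipose tissue was -1.37 (SD 0.42, n = 10 animals, exact permutation p = 0.00195, adjusted p = 0.00293), or 2.59-fold lower in muscle, with the lower value in muscle in 10 of 10 animals and no overlap.

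The ratio of Flt1 to Nos3 was 1.86-fold higher in muscle. Muscle libraries had 1.19 to 2.78 reads of Flt1 for each read of Nos3, with a median of 2.00, and adipose libraries 0.626 to 2.05, with a median of 1.04. The tissues overlapped, and muscle was higher in 9 of 10 animals (log2 difference 0.89, SD 0.62, exact permutation p = 0.00391, adjusted p = 0.00469). The ratio of Kdr to Nos3 differed by -0.48 on the log2 scale (SD 0.60, exact permutation p = 0.0332, adjusted p = 0.0332), lower in muscle in 7 of 10 animals. The call was near the threshold, and did not pass at n = 9 when some animals were left out: with animal 1, 4, 5, 7, 8, 9 or 10 left out in turn, the difference was -0.51 to -0.38 and the adjusted p of the exact permutation test 0.0508 to 0.0664.

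Among animals of 1 tissue, the spread differed between members. In muscle the SD of the log2 level (TMM factors) was 0.48 for Kdr, 0.38 for Vegfa, 0.36 for Nos3 and 0.28 for Flt1 (n = 10). The median SD in muscle was 0.26 over 8303 genes whose mean level reached 5 CPM in muscle as well as in adipose tissue, and 86.5% of genes had a lower SD than Kdr. In adipose tissue the SD was 0.45 for Nos3, 0.33 for Flt1, 0.29 for Vegfa and 0.29 for Kdr (n = 10), against a median of 0.32 over the same genes. Nos3 was the most variable member in adipose tissue and Kdr in muscle. These differences in spread were not tested.

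The 2 receptors varied together among animals. Over 10 muscle libraries, Kdr and Flt1 had r = 0.90 (permutation p = 0.00038, adjusted p = 0.00456 over 12 relations within tissues) and rho = 0.82 (permutation p = 0.00605, adjusted p = 0.0529). Muscle library 10 was the lowest for both genes. Over 10 adipose libraries they had r = 0.76 (permutation p = 0.0127, adjusted p = 0.0378) and rho = 0.67 (permutation p = 0.0392, adjusted p = 0.103). Without the 2 libraries farthest from the Kdr median, r was 0.83 in muscle (permutation p = 0.0123, adjusted p = 0.0737, n = 8) and 0.79 in adipose tissue (permutation p = 0.0233, adjusted p = 0.0932, n = 8), neither of which passed adjustment. With library totals r was 0.94 and 0.85. As a description, 11 of 8302 other genes had a higher r with Kdr than Flt1 had in muscle, and 28 in adipose tissue. Taking deviations from the tissue means over all 20 libraries, Flt1 and Kdr had r = 0.80; 5 genes were closer to Kdr, and 0 of 8302 genes were closer to Flt1 than Kdr was. Libraries share their depth and scaling factor across genes, and what this adds to an r was not tested. Over the 8302 other genes the median r with Kdr was 0.045 in muscle and 0.008 in adipose tissue.

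The relations of Nos3 with the receptors did not pass the test in either tissue, and whether they differed from the relation between the receptors was not tested. Its r with Kdr was 0.47 in muscle (permutation p = 0.164, adjusted p = 0.246) and 0.36 in adipose tissue (permutation p = 0.311, adjusted p = 0.373), with rho of 0.60 (permutation p = 0.0714, adjusted p = 0.122) and 0.32 (permutation p = 0.366, adjusted p = 0.439). Its r with Flt1 was 0.41 in muscle (permutation p = 0.243, adjusted p = 0.324) and -0.04 in adipose tissue (permutation p = 0.912, adjusted p = 0.959), with rho of 0.48 (permutation p = 0.163, adjusted p = 0.245) and -0.08 (permutation p = 0.839, adjusted p = 0.839). In muscle, library 10 stood out: Kdr and Flt1 were at their lowest, 12.8 and 40.7 CPM, while Nos3 at 34.4 CPM was above its median. Without the 2 libraries farthest from the Flt1 median, 5 and 10, r of Flt1 with Nos3 in muscle was 0.87 (permutation p = 0.00621, adjusted p = 0.0737, n = 8). Without libraries 9 and 10, the 2 farthest from the Kdr median, r of Kdr with Nos3 was 0.73 (permutation p = 0.0405, adjusted p = 0.121, n = 8). In adipose tissue, r with Nos3 was 0.09 for Kdr and 0.13 for Flt1 without the 2 farthest libraries (permutation p = 0.831 and 0.773, adjusted p = 0.907 for each, n = 8). There Nos3 was close to many other genes, with r of at least 0.9 for 146 of 8302 genes and a highest r of 0.99; adipose library 3 has the highest Nos3 level.

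In muscle, r of Vegfa passed adjustment with Flt1 and Nos3 and just missed it with Kdr, and whether these r differ was not tested. With library totals r of Vegfa with Kdr was 0.76 (permutation p = 0.0133, adjusted p = 0.0319), which passed. With TMM factors, over 10 muscle libraries, r of Vegfa was 0.70 with Kdr (permutation p = 0.0271, adjusted p = 0.0541), 0.78 with Flt1 (permutation p = 0.00656, adjusted p = 0.0378) and 0.78 with Nos3 (permutation p = 0.0158, adjusted p = 0.0378). The rho was 0.62 (permutation p = 0.0592, adjusted p = 0.118), 0.79 (permutation p = 0.00881, adjusted p = 0.0529) and 0.66 (permutation p = 0.0427, adjusted p = 0.103). Muscle libraries 1, 2, 3, 7 and 8 held 604 to 787 CPM of Vegfa and the other 5 held 410 to 475 CPM, with none between. No r was computed within such sets. Sex was not assigned to the animals, and whether the sets follow it was not tested. Without libraries 1 and 3, the 2 farthest from the Vegfa median, r was 0.67 with Kdr, 0.65 with Flt1 and 0.72 with Nos3 (permutation p = 0.0762, 0.0790 and 0.0700, adjusted p = 0.135 for each, n = 8), none of which passed.

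In adipose tissue the relations were negative or near 0. The r of Vegfa was -0.75 with Flt1 (permutation p = 0.0155, adjusted p = 0.0378), -0.55 with Kdr (permutation p = 0.0986, adjusted p = 0.169) and -0.02 with Nos3 (permutation p = 0.959, adjusted p = 0.959), with rho of -0.75 (permutation p = 0.0171, adjusted p = 0.0685), -0.43 (permutation p = 0.218, adjusted p = 0.290) and 0.08 (permutation p = 0.839, adjusted p = 0.839). Adipose libraries 2, 5, 9 and 10 held 265 to 293 CPM of Vegfa and 57.7 to 74.8 CPM of Flt1, whereas the remaining 6 held 168 to 214 CPM of Vegfa and 77.5 to 112 CPM of Flt1. Without libraries 9 and 10, r was -0.56 with Flt1 (permutation p = 0.148, adjusted p = 0.222, n = 8), -0.41 with Kdr (permutation p = 0.310, adjusted p = 0.413, n = 8) and -0.03 with Nos3 (permutation p = 0.944, adjusted p = 0.944, n = 8). With library totals r with Flt1 was -0.30 (permutation p = 0.432, adjusted p = 0.518). Without adipose libraries 1, 3 and 5 it was -0.80 (exact permutation p = 0.0472, adjusted p = 0.0944, n = 7).

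Tests of the difference of r between the tissues were added after seeing the data. They used Pearson's r over all animals and were not run with rho or with libraries left out. The difference was tested by exchanging the tissues within animals, an exact two-sided permutation test on standardised levels. For Vegfa with Flt1 it was 1.53 (exact permutation p = 0.00195, adjusted p = 0.0117 over 6 pairs), and for Vegfa with Kdr 1.25 (exact permutation p = 0.00586, adjusted p = 0.0176). With library totals these were 1.11 (exact permutation p = 0.0313, adjusted p = 0.0625) and 1.13 (exact permutation p = 0.00586, adjusted p = 0.0352). For Vegfa with Nos3 the difference was 0.80 (exact permutation p = 0.123, adjusted p = 0.246), and for Kdr with Flt1 0.14 (exact permutation p = 0.314, adjusted p = 0.377). With library totals they were 1.18 (exact permutation p = 0.0313, adjusted p = 0.0625) and 0.09 (exact permutation p = 0.295, adjusted p = 0.295).

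**Figure D4:**
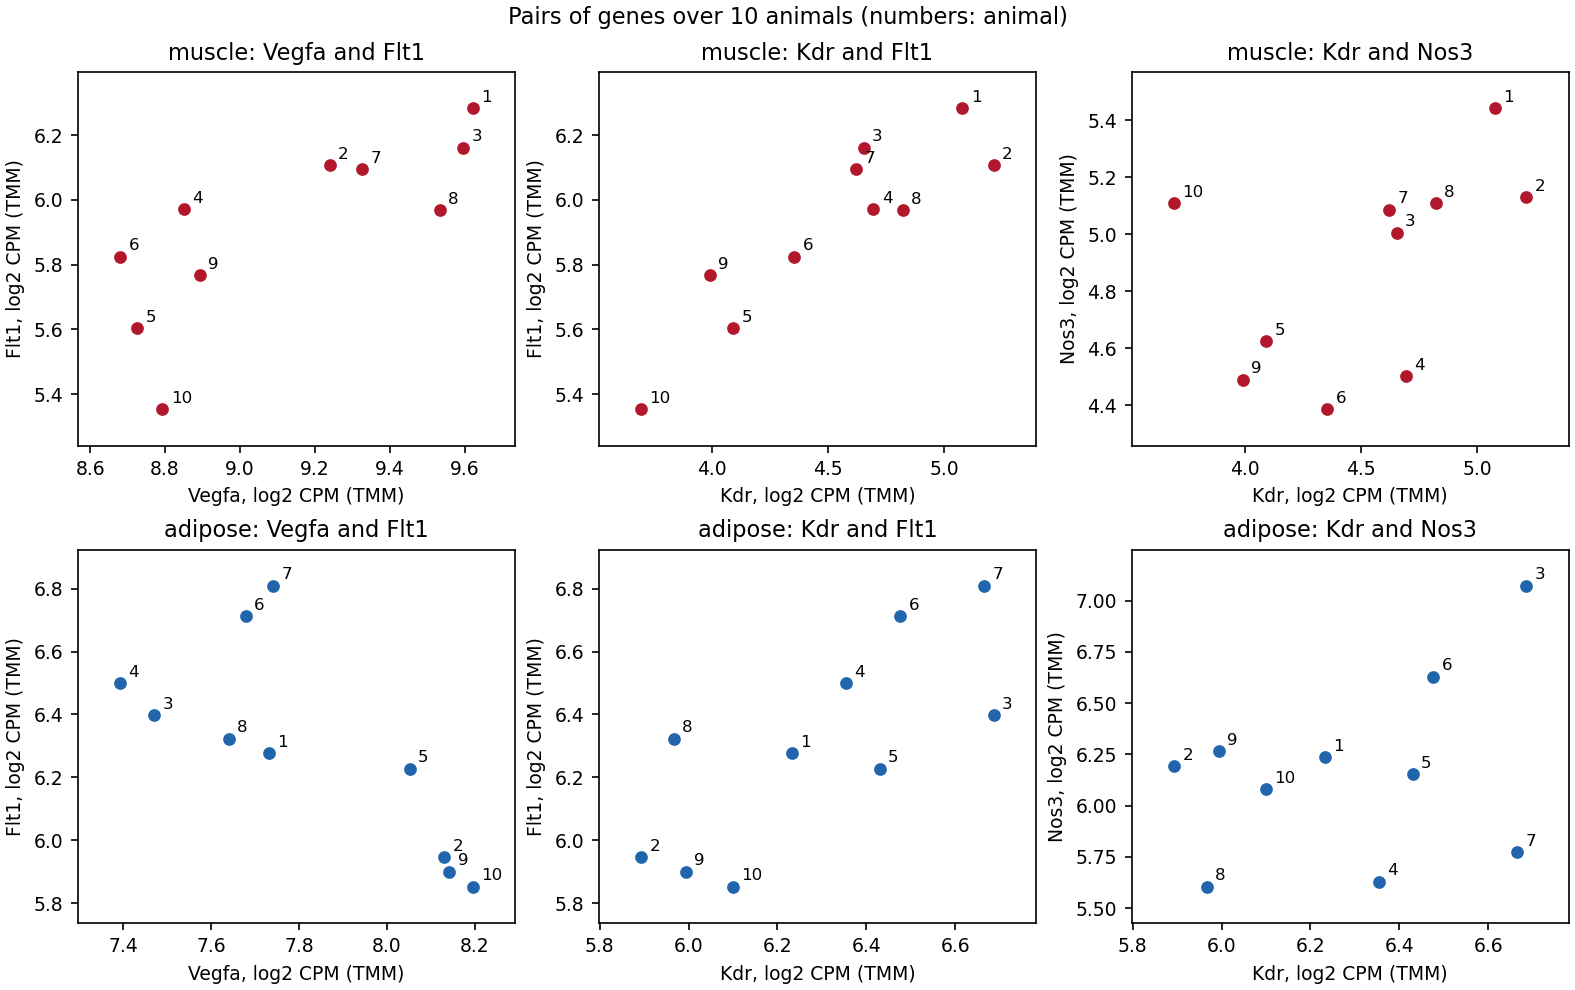
Log2 CPM (TMM factors) of pairs of genes over 10 muscle libraries (upper row) and 10 adipose libraries (lower row); numbers are animals. Kdr and Flt1 rise together in both tissues, Vegfa and Flt1 have r of opposite sign in the 2 tissues, and muscle library 10 lies apart for Kdr and Nos3.

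The level of a gene in muscle was not found to go with its level in the adipose tissue of the same animal. Over 10 animals r was 0.42 for Flt1 (permutation p = 0.228, adjusted p = 0.557), -0.38 for Vegfa (permutation p = 0.279, adjusted p = 0.557), -0.09 for Nos3 (permutation p = 0.800, adjusted p = 0.859) and -0.06 for Kdr (permutation p = 0.859, adjusted p = 0.859). The rho was 0.41 for Flt1 (permutation p = 0.246, adjusted p = 0.469), -0.28 for Vegfa (permutation p = 0.427, adjusted p = 0.469), -0.28 for Nos3 (permutation p = 0.428, adjusted p = 0.469) and -0.26 for Kdr (permutation p = 0.469, adjusted p = 0.469). Without the 2 animals farthest from the muscle median, r was 0.06 for Flt1, -0.18 for Vegfa, 0.21 for Nos3 and -0.62 for Kdr (permutation p = 0.879, 0.690, 0.617 and 0.100, n = 8). Without animals 1, 2, 3 and 5, r was 0.76 for Flt1, -0.23 for Vegfa, -0.55 for Nos3 and 0.33 for Kdr (exact permutation p = 0.0486, 0.681, 0.182 and 0.508, n = 6), and the adjusted p for Flt1 was 0.194.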

How the data were processed

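Messenger RNA was sequenced from 10 muscle and 10 adipose libraries, made from 300 ng of RNA each per the labels' protocols. Per the submitters' processing notes, the tools were featureCounts, STAR and bcl2fastq and the assembly was rn6, with no versions; for the strand setting, the annotation release and reads with several matches, the sources used here give nothing. The deposited values were taken as counts or expected counts per gene, not normalised, and 25.3% of values above 0 were whole within 0.005. How the fractions arose is not given in the sources used here. Counts were rounded for the tests. Samples were grouped by title, and columns matched to samples by name.

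The analysis used edgeR 4.0.16 in R 4.3.3: filterByExpr, TMM factors, and the robust quasi-likelihood test of muscle against adipose tissue over all genes, without the animal as a block. SEs follow from the F statistic. Totals behind CPM are over the tested genes. Log2 CPM used a prior count of 2, and so did the log2 ratios. Permutation tests of correlations drew 100000 resamples, or all orders for n below 8, in scipy 1.17.1 and numpy 2.4.6; each p is two-sided. Alternatives were other scalings and filters, the animal block, limma-voom (limma 3.58.1), DESeq2 1.42.0, unrounded counts and libraries left out. Reads carry no molecular identifiers, so read numbers do not give the counting error of molecules. P-values rest on the spread between libraries. With 1 library per tissue and animal, differences between animals and between library preparations are not separated.

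The members, lists and tests were chosen with earlier results of these data known. The tests of the difference of r were added after seeing the data. The gene table of the reference has Ensembl identifiers for 0 genes, so the lists of pathway genes, cell type markers and the naming of the genes most like each member could not be run, and only the 4 members are named. Same-numbered libraries come from 1 animal, per the design text and titles. Over 8303 genes, deviations of such pairs had correlations of -0.22 to 0.42 (median 0.12), against a median of -0.03 between different animals. Libraries of a tissue differed beyond sampling noise, with a chi-square of at least 11.9 per degree of freedom for every pair.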

Additional observations from a re-analysis of the deposited data

Results flagged for a closer look

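Among 20 groups of 10 libraries (the 4 levels and the 6 log2 ratios in each tissue), a single library stood apart in 2 groups by Dixon's criterion, and chance gives about 1 in 20 groups. Both cases are muscle library 10. Its log2 ratio of Kdr to Nos3 was -1.41, next to -0.53 for the nearest muscle library, a gap of 0.549 of the range. Its log2 ratio of Flt1 to Nos3 was 0.24, next to 0.84, a gap of 0.489 of the range. The 2 cases share Nos3 and this library, whose total of 16528094 counts lies within the range of its tissue.

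In tests added after seeing the data, Pearson's r of Vegfa with the receptors differed between the tissues with TMM factors. The difference was not tested with rho or with libraries left out. The r in muscle minus the r in adipose tissue was 1.25 for Vegfa with Kdr (exact permutation test, adjusted p = 0.0176) and 1.53 for Vegfa with Flt1 (exact permutation test, adjusted p = 0.0117). With library totals the first was 1.13 (exact permutation test, adjusted p = 0.0352) and the second 1.11 (exact permutation test, adjusted p = 0.0625).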

How the results depend on the processing

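The tissue differences of Kdr, Flt1 and Nos3 kept their direction and their side of the threshold under every alternative run, and Vegfa under all but library totals, with log2 fold changes of 0.032 and, with the animals blocked, 0.0066 (edgeR adjusted p = 0.854 and 0.974). With TMM factors and a block for the animal, the log2 fold changes were 1.31, -1.76, -0.38 and -1.28 for Vegfa, Kdr, Flt1 and Nos3, and the block with TMM factors changed no call of the 4 members. Leaving out each animal gave 1.26 to 1.41, -1.84 to -1.62, -0.45 to -0.33 and -1.38 to -1.13. With library totals 1692 called genes (14.2%) had the higher level in muscle and 10240 (85.8%) in adipose tissue, beside 5187 (47.1%) and 5824 (52.9%) with TMM factors; with the block as well they gave 1752 and 10130. Of the 6 ratios, 5 kept their call under every alternative. Kdr/Nos3 ran from -0.58 to -0.38 with each animal left out, and was -0.53 without animals 1, 3 and 5 (exact permutation test, adjusted p = 0.0938). Permuting the libraries freely, with no replicate block, changed the call of none of the 6 ratios; the difference of Vegfa/Kdr, 3.06, is the same quantity in both tests.

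The correlations were the least stable results. With Spearman's rho the calls of Vegfa with Flt1 (0.79) and Nos3 (0.66) and of Kdr with Flt1 (0.82) in muscle, and of Vegfa with Flt1 (-0.75) and Kdr with Flt1 (0.67) in adipose tissue, did not pass adjustment, and Vegfa with Nos3 in adipose tissue was 0.079. With library totals Vegfa with Kdr in muscle passed (0.76) and Vegfa with Flt1 in adipose tissue did not (-0.30). Without the 2 farthest animals the same 5 calls were lost, at 0.65, 0.72, 0.83, -0.56 and 0.79, Flt1 with Nos3 in adipose tissue was 0.13, and Nos3 between the tissues 0.21. Without muscle library 2, Vegfa had 0.78 with Flt1 and 0.78 with Nos3, no longer called. Without adipose libraries 1, 3 and 5, Vegfa with Flt1 was -0.80 and Kdr with Flt1 0.87, no longer called, Vegfa with Nos3 0.47, Kdr with Nos3 -0.029, and, without animals 1, 2, 3 and 5, Kdr between the tissues 0.33. Fewer libraries enter these fits.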
